A study of Mus musculus with 30 samples.

Results

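The mouse mitochondrial genome carries 37 genes, of which 13 encode proteins, 2 encode ribosomal RNAs and 22 encode tRNAs. They were chosen by their symbols, all of which begin with mt-, after the Ensembl identifiers had been matched to mouse symbols, and they make up 37 of the 54532 genes counted in each library. No measured value entered this rule, although earlier results of these data were known when it was set. RNA of these genes was compared in platelets and in peripheral blood mononuclear cells (PBMC) of female C57BL/6 mice aged 6 to 8 weeks at the start. Blood was taken 14 days after subcutaneous injection of B16F10 cells, a mouse melanoma line of the same strain. Mice of the O group (optimal inoculation) received 100000 cells and carried large tumors, mice of the S group (suboptimal inoculation) received 2000 cells and were labelled as early tumor, and mice of the C group received 100 µl of HBSS buffer without cells. Each tissue and group was represented by 5 libraries, so that 15 platelet and 15 PBMC libraries were available. Every library was a pool of 3 to 10 mice, as labelled, so that each value is an average over animals. The smallest pools, of 3 mice, were pools 1 and 4 of the O group in both tissues, and the PBMC came from the layer of the same tubes that was left after the platelets had been drawn off.

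Both strands of mitochondrial DNA are transcribed into long precursors. The tRNAs lie between most of the other genes and are cut out, which frees the rRNAs and mRNAs. The 2 rRNAs, mt-Rnr1 of the small and mt-Rnr2 of the large subunit of the mitochondrial ribosome, lie near the start of heavy-strand transcription. The 13 proteins are core subunits of 4 complexes of oxidative phosphorylation, whose other subunits come from nuclear genes. Platelets have no nucleus, but they keep mitochondria that they receive from the megakaryocyte. The libraries were made from RNA bound to poly-T beads, so a level here is that of RNA that was retained on such beads, and the kit did not mark the strand. Fewer mitochondria per cell, less RNA per mitochondrion and a different mixture of cells cannot be told apart in such pools.

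Several mitochondrial genes have a nearly identical copy in a stretch of mitochondrial DNA that lies in nuclear chromosome 1 (chr1:24611535-24616197 in GRCm38, 4663 bases). The sequences are shown because a read from a stretch that is the same in both places cannot be assigned to either, which bears on the level of every gene in the stretch. They were read from the transcripts of GENCODE release 21 on GRCm38, each in the direction of its own transcript. The copy of mt-Nd3, Gm28438 (chr1:24612775-24613119, minus strand), is shown over its stretch chr1:24613077-24613119, which differs from the first 43 bases of the coding exon of mt-Nd3 (chrM:9459-9501, plus strand) by T3C, counted from 1 at the start of mt-Nd3 and printed in capitals. Over the 345 bases that the copy holds, the remainder matches at 99% or more.
mt-Nd3: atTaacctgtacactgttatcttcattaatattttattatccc
Gm28438: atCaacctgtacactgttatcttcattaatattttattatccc
The copy of mt-Co1, Gm29216 (chr1:24615706-24616197, minus strand), holds only 483 of the 1545 bases of mt-Co1. The stretch shown, chr1:24616145-24616188, matches part of the coding exon of mt-Co1 (chrM:6390-6433, plus strand), with A1066T in capitals, counted from the first base of mt-Co1.
mt-Co1: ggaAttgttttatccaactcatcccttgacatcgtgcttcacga
Gm29216: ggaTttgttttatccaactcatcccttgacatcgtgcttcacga
The copy of mt-Co2, Gm28661 (chr1:24614885-24615565, minus strand), had no difference from mt-Co2 over 681 of its 684 bases, and the first 80 bases of the mt-Co2 coding exon (chrM:7013-7092, plus strand) are shown beside chr1:24615486-24615565, in lower case throughout.
mt-Co2: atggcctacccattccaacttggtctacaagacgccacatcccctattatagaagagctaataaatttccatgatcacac
Gm28661: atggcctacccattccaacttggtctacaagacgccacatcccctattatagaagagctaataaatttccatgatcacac

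The libraries held 12259036 to 25360080 counts on genes in platelets (median 17140564) and 13390983 to 15973449 in PBMC (median 14684708). At this depth the 95% Wilson interval of a share of mitochondrial counts reached at most 0.0179 percentage points to either side, which covers counting error only. Platelet and megakaryocyte markers summed to 17140 to 54149 CPM (counts scaled to the same total in every library) in the platelet libraries, and 13 of the 14 were above 0 in every platelet library. They were present in PBMC as well, at 983 to 6805 CPM, again with 13 of 14 above 0 in every library. Markers of leukocytes were detected in platelets, where those of T cells summed to 210 to 432 CPM (446 to 1547 CPM in PBMC) and those of monocytes to 1015 to 2879 CPM (3498 to 7427 CPM in PBMC). Hemoglobin mRNAs took 4.02% to 39.0% of the counts in platelets and 3.23% to 24.5% in PBMC. In PBMC the hemoglobin share was 24.5%, 18.2%, 15.1%, 19.2% and 6.52% in pools 1 to 5 of the O group, and all but pool 5 lay above the C group (3.29% to 9.39%) and the S group (3.23% to 8.62%). The melanocyte and melanoma markers summed to 1.504 to 7.85 CPM in platelets and to 11.5 to 48.6 CPM in PBMC. In each tissue 2 of the 8 were above 0 in every library. In PBMC they summed to 36.8 to 48.6 CPM in the C group, which received no tumor cells. The S group had 38.7 to 46.5 CPM and the O group 11.5 to 40.4 CPM.

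Mitochondrial RNA took about 1 count in 10 or more in most platelet libraries and fewer than 1 in 40 in every PBMC library. In platelets of the C group the 37 genes took 10.9%, 17.8%, 12.7%, 9.61% and 9.46% of the counts in pools 1 to 5 (12.1% ± 3.45, SD, n = 5). The S group gave 12.9%, 12.2%, 14.2%, 11.5% and 9.13% (12.0% ± 1.88, n = 5), and the O group 5.39%, 18.9%, 11.6%, 13.2% and 8.37% (11.5% ± 5.11, n = 5). The 3 groups overlapped, with the O group holding both the lowest and the highest platelet library. In PBMC the C group gave 1.44%, 1.85%, 1.16%, 1.86% and 2.02% (1.67% ± 0.354, n = 5), the S group 1.80%, 1.55%, 1.30%, 1.503% and 1.52% (1.53% ± 0.180, n = 5) and the O group 1.33%, 1.24%, 1.27%, 1.31% and 1.34% (1.30% ± 0.0423, n = 5). Every platelet library lay above every PBMC library. The difference between the tissues was 10.4 percentage points in the C group, 10.4 in the S group and 10.2 in the O group (exact permutation test, two-sided, 5 libraries against 5, P = 0.00794 each, the smallest value this design allows, adjusted P = 0.0238 over 9 comparisons). Both tissues came from the same blood, but no label says that pools of the same number hold the same mice. Taken as 5 pairs by number, the differences did not pass (exact paired permutation test, P = 0.0625, the smallest value that 5 pairs allow, adjusted P = 0.141), with every pair higher in platelets.

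Between groups, no share of mitochondrial counts passed the threshold after adjustment over the 9 comparisons. In platelets the 3 exact permutation P values were 0.833 to 0.937. In PBMC the share was 0.237 percentage points higher in the S than in the O group (exact permutation P = 0.0317, adjusted P = 0.0714) and 0.370 points lower in the O than in the C group, a value that did not pass (exact permutation P = 0.0794, adjusted P = 0.143). Whether both PBMC values passed depended on 1 library each, whose omission made the difference larger. Neither value changed its sign when any single pool was left out. Without pool 3 of the S group the difference between S and O was 0.297 points, and without pool 3 of the C group that between O and C was -0.496 points (exact permutation, adjusted P = 0.0179 each). In PBMC, pool 3 of the S group had counts on 32900 genes, beside 20540 to 22991 in the other libraries. The cause was not tested. With hemoglobin mRNAs left out of the total the differences were 0.0659 and -0.190 points, and the part of hemoglobin in the group difference was not tested further.

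The surplus in platelets was mostly rRNA. Of the mitochondrial counts, rRNA made up 85.2% ± 5.99 in platelets (70.6% to 91.6%, SD, n = 15) and 38.0% ± 8.20 in PBMC (21.1% to 50.6%, n = 15), mRNA 14.7% and 61.8%, and tRNA 0.105% and 0.228%. Measured against all counts, mitochondrial rRNA took 10.2% in platelets (3.81% to 16.9%) and 0.587% in PBMC (0.246% to 1.02%). Mitochondrial mRNA took 1.61% (0.968% to 2.50%) and 0.909% (0.767% to 1.01%), so the mRNA shares of both tissues overlapped at their edges while the rRNA shares did not.

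**Figure D1:**
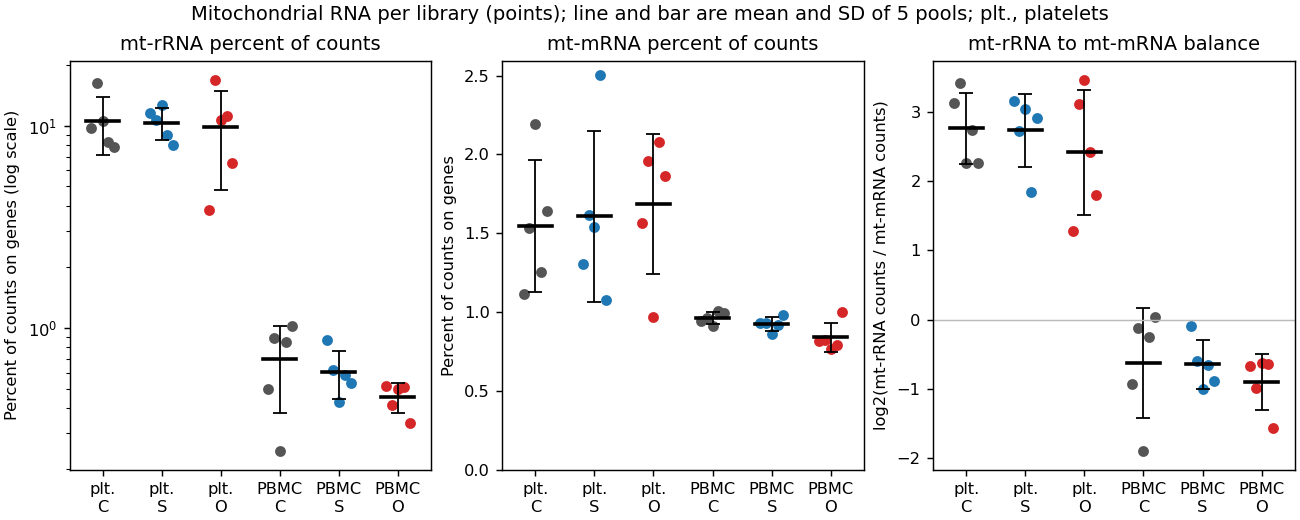
Percent of counts on genes taken by the 2 mitochondrial rRNAs (left, log axis) and by the 13 mitochondrial mRNAs (middle), and log2 of their ratio (right), by tissue (plt., platelets) and group; each point is 1 library, the line the mean and the bar the SD of 5 pools. All 15 platelet libraries lie above all 15 PBMC libraries for the rRNA share and the ratio, and the 3 groups of each tissue overlap.

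In platelets the ratio of rRNA to mRNA counts was 8.75, 10.6, 4.80, 6.65 and 4.77 in the pools of the C group, 8.87, 6.58, 8.22, 3.58 and 7.49 in the S group and 2.43, 8.61, 11.0, 5.36 and 3.48 in the O group. In PBMC it was 0.527, 0.919, 0.269, 0.841 and 1.03 in the C group, 0.936, 0.660, 0.499, 0.635 and 0.542 in the S group and 0.628, 0.503, 0.650, 0.644 and 0.338 in the O group. The lowest platelet library thus exceeded the highest PBMC library, and rRNA outnumbered mRNA in 1 of the 15 PBMC libraries. On the log2 scale the ratio was higher in platelets by 3.39 in the C group, 3.38 in the S group and 3.31 in the O group (exact permutation P = 0.00794 each, adjusted P = 0.0238, and P = 0.0625, adjusted P = 0.188, as pairs by number). None of the 6 comparisons between groups passed, with exact permutation P values of 0.341 to 0.968. The balance between both rRNAs also differed, since mt-Rnr2 had 1.67 ± 0.0998 times the counts of mt-Rnr1 in platelets (1.498 to 1.87, n = 15) and 2.07 ± 0.208 times in PBMC (1.60 to 2.37, n = 15), ranges that overlapped and were not tested.

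Within PBMC the ratio of rRNA to mRNA was higher in libraries with more platelet RNA. The summed CPM of the 14 platelet and megakaryocyte markers ranged from 983 to 5782 in the C group, from 2408 to 3502 in the S group and from 1864 to 6805 in the O group. Across the 15 PBMC libraries the log2 ratio correlated with the log2 of this sum (Pearson r = 0.802, permutation P = 0.0003, adjusted P = 0.0006, and Spearman rho = 0.746, permutation P = 0.00181, adjusted P = 0.00362, for 2 relations examined). Without the 2 libraries farthest from the median of the marker sum, pool 3 of the C group and pool 1 of the O group, r was 0.786 (permutation P = 0.00152), and for deviations from the group means it was 0.847. In the 15 platelet libraries the relation did not pass (r = 0.380, permutation P = 0.163, and rho = 0.439, permutation P = 0.102). There r was 0.509 without pools 4 and 5 of the O group (permutation P = 0.0733) and 0.428 for deviations from group means. Within the C, S and O groups, of 5 libraries each, r was 0.988, 0.384 and 0.269 in platelets and 0.967, 0.81 and 0.709 in PBMC. This relation was examined after the values had been seen, and both of its measures come from the same libraries.

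**Figure D2:**
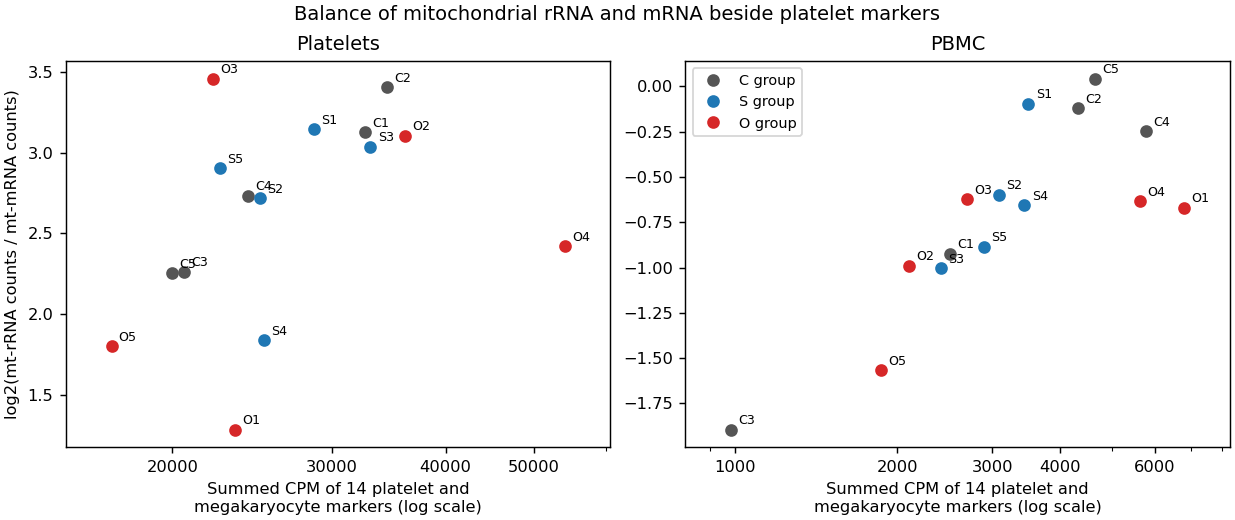
Log2 ratio of mitochondrial rRNA to mRNA counts (y axis) against the summed CPM of 14 platelet and megakaryocyte markers (x axis, log scale) for platelets (left) and PBMC (right), 1 point for each library, labelled by group and pool. In PBMC the ratio rises with the markers (r = 0.802, n = 15), from pool 3 of the C group at 983 CPM upwards, while the platelet libraries scatter more (r = 0.380, n = 15).

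Levels of the members were compared per kilobase of gene, as CPM scaled by trimmed mean of M values (TMM) and given as the mean ± SD of 15 libraries. In platelets mt-Rnr2 (64125 ± 27030) and mt-Rnr1 (63985 ± 27587) were highest, and their levels did not differ beyond their spread. They were followed by mt-Co1, the catalytic subunit of cytochrome c oxidase (8052 ± 3750), mt-Cytb, the cytochrome b of complex III (3926 ± 1130), and the complex I subunits mt-Nd1 (2069 ± 709), mt-Nd4 (1751 ± 510), mt-Nd2 (1436 ± 536), mt-Nd5 (1067 ± 292) and mt-Nd6 (868 ± 331). From mt-Nd1 to mt-Nd6, neighbours in this order lay within the larger of their SDs. In PBMC mt-Co1 came first (2068 ± 585), followed by mt-Rnr2 (1613 ± 573) and mt-Rnr1 (1320 ± 520), each within the larger SD of its neighbour. The order then went on with mt-Nd1 (682 ± 65.4) and mt-Cytb (643 ± 56.3), which lay within the larger of their SDs, and below them mt-Nd2 (316 ± 33.8), mt-Nd5 (297 ± 20.2), mt-Nd6 (249 ± 21.0) and mt-Nd4 (230 ± 20.6). Of these last neighbours, mt-Nd5 and mt-Nd6 differed by more than their spread. mt-Nd6 is the only protein gene encoded on the other strand, and it shares 14 bases with its neighbour mt-Nd5. Its level lay within the spread of that of mt-Nd5 in platelets and below it in PBMC. The strand was not marked, so its counts may hold RNA of either strand.

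Of the protein genes, 6 stood far below the rest in both tissues. These were mt-Co2 and mt-Co3, which with mt-Co1 form the core of cytochrome c oxidase, mt-Atp6 and mt-Atp8 of the membrane part of ATP synthase, and mt-Nd3 and mt-Nd4l of complex I. In platelets their levels per kilobase were 109 for mt-Co2, 48.1 for mt-Nd3, 31.5 for mt-Atp6, 29.6 for mt-Co3, 11.3 for mt-Nd4l and 3.89 for mt-Atp8, and in PBMC 14.1, 5.37, 7.39, 5.99, 2.92 and 0.521. All but mt-Atp8 were genes of which more than 90% of the length has a near-identical copy on chromosome 1. Among the 7 other protein genes the lowest level was 7.99 times that of mt-Co2 in platelets (mt-Nd6) and 16.4 times in PBMC (mt-Nd4). In single libraries the gap between the highest of the 5 copied genes and the lowest of the 7 others was at least 1.85-fold in platelets and 7.71-fold in PBMC. mt-Atp8 has no near-identical copy of at least 100 bases among the annotated transcripts, although Gm10925 holds the 43 bases that it shares with mt-Atp6. The copies of mt-Co2 and mt-Atp6 are 233 bases apart, as are the matching parts of both genes in mitochondrial DNA, between which mt-Atp8 begins, and its last 43 bases overlap mt-Atp6. The end of mt-Atp8 (chrM:7887-7969, plus strand) is shown with the shared bases in capitals.
mt-Atp8: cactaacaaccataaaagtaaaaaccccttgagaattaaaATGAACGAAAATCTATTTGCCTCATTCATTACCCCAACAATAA

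**Figure D3:**
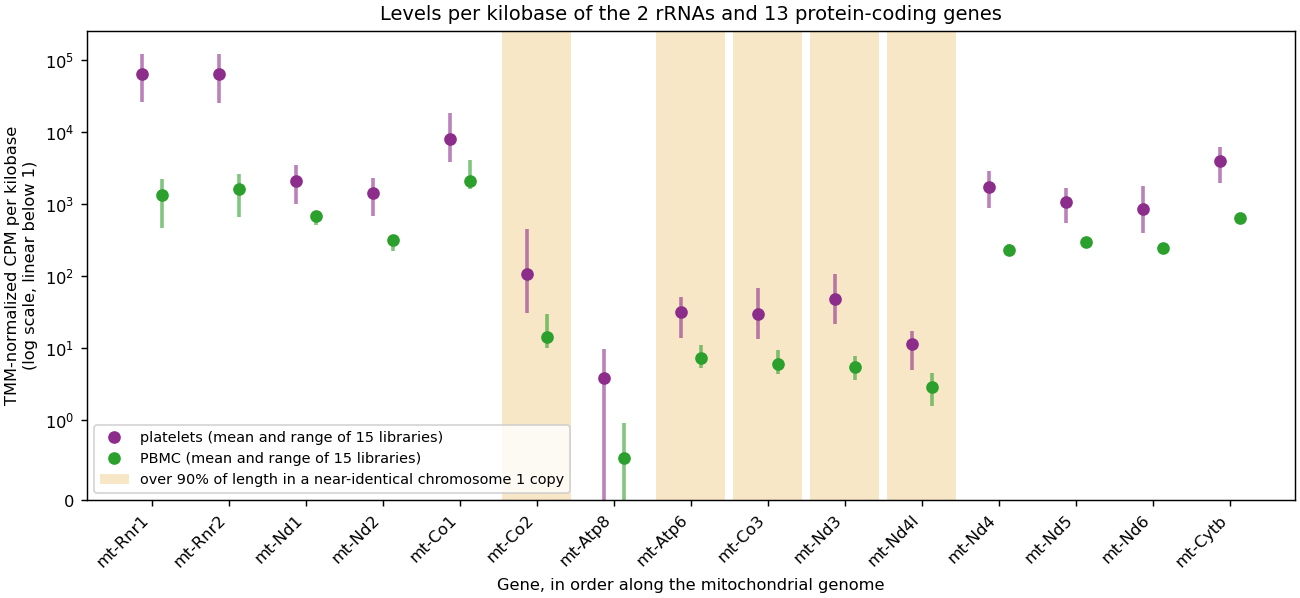
TMM-normalized CPM per kilobase (y axis, log scale and linear below 1) of the 2 rRNAs and 13 protein-coding genes in their order along the mitochondrial genome (x axis), as the mean and range of 15 platelet and 15 PBMC libraries. Shaded genes have more than 90% of their length in a near-identical copy on chromosome 1; all 5 lie below every unshaded gene except mt-Atp8.

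The copies themselves received reads at levels close to those of some of their mitochondrial genes. Summed over 15 libraries, Gm10925 had 0.943 times the counts of mt-Atp6 in platelets and 0.946 times in PBMC, and Gm28437 had 0.778 and 0.750 times those of mt-Co3. Gm28661 had 0.322 and 0.615 times those of mt-Co2, Gm10222 0.492 and 0.464 times those of mt-Nd4l, and Gm28438 0.0766 and 0.186 times those of mt-Nd3 (median over libraries 0.0351 and 0.182). The 2 copies of larger genes that they hold only in part were low, with Gm28439 at 0.00329 and 0.00413 of mt-Nd4 and Gm29216 at 0.00187 and 0.00105 of mt-Co1. The last pair of values rests on a few platelet libraries, since the median over libraries was 0.000915 in platelets and 0.000940 in PBMC. How reads with more than 1 possible place were counted is not given in the sources used here, so the levels of mt-Co2, mt-Co3, mt-Atp6, mt-Nd3 and mt-Nd4l are uncertain, and the part of the copies in their low counts was not tested. The levels of mt-Nd4 and mt-Co1 carry the same limit over the 63.6% and 31.3% of their length that has a near-identical copy. Gm10222 was added to the list of copies after the values had been seen.

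The highest tRNA gene in platelets was mt-Tp, the proline tRNA at the end of the gene order, beside the control region. It was counted 883 to 4185 times per platelet library and 58 to 397 times per PBMC library (TMM-normalized CPM 169 ± 109 and 7.59 ± 6.54, SD, n = 15 each). In PBMC its mean rested on pool 1 of the O group (30.4 CPM). Without that pool it was 5.96 CPM beside 6.05 for the asparagine tRNA mt-Tn (n = 14), and mt-Tn was the higher of both in 8 of the 15 PBMC libraries. Its neighbour mt-Tt, the threonine tRNA on the other strand, was counted at most 6 times in any library. Both sequences are shown, since the strand of the reads on mt-Tp (chrM:15356-15422, minus strand) and mt-Tt (chrM:15289-15355, plus strand) could not be told apart.
mt-Tp: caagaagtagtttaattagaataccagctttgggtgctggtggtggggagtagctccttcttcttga
mt-Tt: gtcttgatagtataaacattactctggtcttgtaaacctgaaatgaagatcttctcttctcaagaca
Next in platelets came the cysteine tRNA mt-Tc (6.70 ± 2.91 CPM in platelets and 4.73 ± 1.59 in PBMC) and the asparagine tRNA mt-Tn (4.16 ± 1.45 and 5.87 ± 1.44). These 2 genes (mt-Tc chrM:5192-5257 and mt-Tn chrM:5089-5159, both minus strand) lie on either side of the origin of light-strand replication.
mt-Tc: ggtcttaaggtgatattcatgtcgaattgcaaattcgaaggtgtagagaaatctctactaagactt
mt-Tn: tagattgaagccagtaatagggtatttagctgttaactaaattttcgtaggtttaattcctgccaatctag
A mature tRNA is shorter than the fragments such libraries hold and has no poly(A) tail, so these counts are of RNA that contains the tRNA sequence, whichever its form. mt-Tf, mt-Ts1 and mt-Td had no count in any of the 30 libraries, where 3 counts would equal 0.118 to 0.245 CPM, and mt-Tk had none in platelets and at most 1 in PBMC. In all, 33 members had a count in at least 1 platelet library and 34 in at least 1 PBMC library.

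Platelets were then compared with PBMC gene by gene in a single fit of the 30 libraries that also held the group (edgeR's quasi-likelihood test). Of 15773 genes tested, 81.2% passed an adjusted P of 0.05, with 36.0% higher and 45.2% lower in platelets, so passing this test is common. Of the 37 members 22 had enough counts to be tested, among them both rRNAs and 12 of the 13 protein genes. Of these 22, 19 were higher in platelets and 1, mt-Tn, was lower (log2 fold change -0.50, adjusted P = 0.00771). The rRNAs led, with log2 fold changes of 5.60 ± 0.30 (SE) for mt-Rnr1 and 5.31 ± 0.29 for mt-Rnr2. In platelets mt-Rnr1 ranged from 24752 to 118190 TMM-normalized CPM, and in PBMC from 442 to 2120. Of the tRNAs, mt-Tp (4.47), the glutamate tRNA mt-Te (3.74), the tyrosine tRNA mt-Ty (3.13), the leucine tRNA mt-Tl2 (2.27) and mt-Tc (0.49) were higher. Those of mt-Te and mt-Ty are uncertain in size, because these genes had 0 to 14 and 0 to 9 counts per PBMC library and entered the test through their platelet counts, having passed the filter in no comparison within PBMC. The other leucine tRNA mt-Tl1 (0.33) and the tryptophan tRNA mt-Tw (0.37) did not pass.

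The protein genes spread over a narrower range of log2 fold changes. Complex I had mt-Nd3 (3.13), mt-Nd4 (2.93), mt-Nd2 (2.17), mt-Nd4l (1.94), mt-Nd5 (1.84), mt-Nd6 (1.79) and mt-Nd1 (1.60), and complex III had mt-Cytb (2.61). Complex IV had mt-Co2 (2.85), mt-Co3 (2.29) and mt-Co1 (1.94), and complex V had mt-Atp6 (2.08). All 12 passed. These sizes rest on the scaling, because TMM factors were 0.38 to 1.01 in platelets and 0.93 to 1.77 in PBMC. Scaled to total counts alone, the median of all genes moved from -0.155 to -1.37. On that scale 17 members were higher and 4 lower in platelets, where 13.6% of all genes were higher and 77.7% lower. mt-Rnr1 (4.33) and mt-Rnr2 (4.04) remained higher, mt-Nd1 was at 0.36 (adjusted P = 0.0509), and mt-Tc (-0.79), mt-Tl1 (-0.93) and mt-Tw (-0.83) turned negative beside mt-Tn (-1.76). The ratios and shares within mitochondrial RNA given above do not depend on this scaling.

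**Figure D4:**
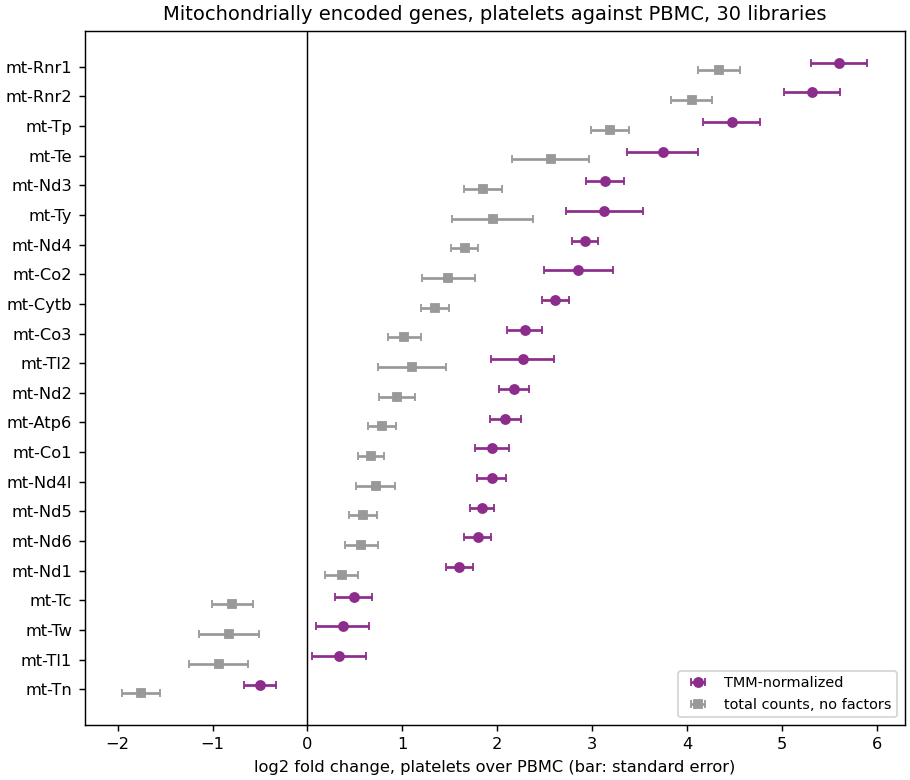
Log2 fold change of platelets over PBMC (x axis) with its standard error (bar) for the 22 members tested (y axis), with TMM scaling (circles) and with total counts alone (squares). mt-Rnr1 (5.60) and mt-Rnr2 (5.31) lie highest on both scales and mt-Tn (-0.50) lowest, and mt-Tc, mt-Tw and mt-Tl1 change sign between the scales.

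The mRNA counts were also divided by complex. Complex I genes took 33.5% of the mitochondrial mRNA counts in platelets and 33.9% in PBMC, mt-Cytb of complex III 18.1% and 12.6%, complex IV genes 48.3% and 53.5% and complex V genes 0.0872% and 0.0873%. mt-Cytb took more in platelets by 5.43 percentage points in the C group, 6.55 in the S group and 4.57 in the O group. The C and S groups of both tissues did not overlap (exact permutation P = 0.00794, adjusted P = 0.0952 over 36 comparisons), while the O groups did (exact permutation P = 0.0397, adjusted P = 0.159). Complex IV took less in platelets by 7.57 points in the S group, where the tissues did not overlap (exact permutation P = 0.00794, adjusted P = 0.0952). Platelets minus PBMC, it was -3.90 points in the C group (exact permutation P = 0.0317, adjusted P = 0.143). In the O group it was -3.97 (exact permutation P = 0.532, adjusted P = 0.638), and in both groups the tissues overlapped. No comparison of complexes, between tissues or between groups, passed after adjustment over the 36.

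Pools 1 and 4 of the O group stood apart in their mRNA composition in both tissues. mt-Co1 took 69.8% and 59.4% of the mRNA counts in these pools in platelets, and 40.7% to 49.4% in the other 13 platelet libraries. In PBMC it took 71.3% and 61.7%, and 47.8% to 54.4% in the other 13. In platelets of pool 1 mt-Cytb took 10.4% and mt-Nd2 2.49%, the lowest of the 15 libraries, and in PBMC of pool 1 mt-Cytb took 8.66%, mt-Nd1 5.57% and mt-Nd2 2.69%, again the lowest of 15. The pools differed in hemoglobin mRNA, which took 39.0% and 4.29% of the counts in platelets of pools 1 and 4 and 24.5% and 19.2% in PBMC. Both were pools of 3 mice, and the part of pool size, hemoglobin-rich cells or RNA quality was not tested. They are the libraries behind the value for complex IV between the S and O groups in platelets, which was -9.96 percentage points with all pools (exact permutation P = 0.0317, adjusted P = 0.143) and -2.78 without both pools (exact permutation P = 0.143).

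**Figure D5:**
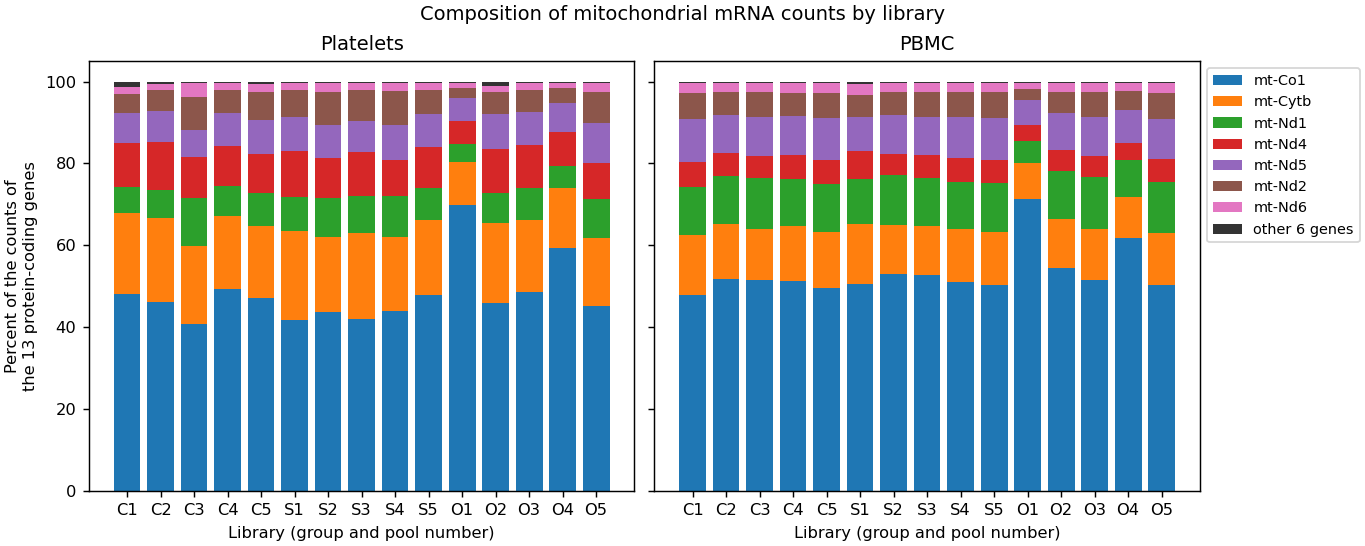
Percent of the counts of the 13 protein-coding mitochondrial genes (y axis) taken by each gene in each of the 15 platelet (left) and 15 PBMC libraries (right), named by group and pool. mt-Co1 takes 69.8% and 59.4% in platelets and 71.3% and 61.7% in PBMC in pools 1 and 4 of the O group, above all other libraries of the same tissue.

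To ask whether mitochondrial RNA changed with tumor inoculation, the groups were compared gene by gene within each tissue (edgeR's quasi-likelihood test, with the study's threshold of an unadjusted P under 0.05). No member passed after adjustment over all genes in any of the 6 comparisons, by edgeR or by DESeq2. By edgeR 0.00754% of all genes did so between S and C in platelets, 0.0330% between S and C in PBMC and 0% in the other 4. By DESeq2 275 of all genes passed after adjustment between S and O in platelets, 9 between S and C and 5 between O and C, and in PBMC 216, 25 and 239. Between the S and C groups in platelets, 6.42% of 13268 genes passed unadjusted, 4.29% of all genes as higher and 2.13% as lower in the S group, and of 22 members tested 0 were higher and 2 lower. With total counts 10.3% of all genes were higher and 0.241% lower, and no member passed. Between the S and O groups in platelets 13.9% of 13306 genes passed, 6.67% of all genes as lower in the S group, and 1 of 22 members, also lower. Between the O and C groups 4.79% of 13270 genes passed, 2.17% of all genes as lower in the O group, and 1 of 22 members, also lower. The 2 of 22 members lower between S and C were a larger share than that of all genes, the 1 of 22 between S and O a smaller one, and with so few members neither is read as a result about them.

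In platelets mt-Nd3 passed unadjusted between the S and C groups, with TMM-normalized CPM of 23.5, 26.2, 24.0, 11.5 and 15.1 in the C group and 11.4, 13.8, 18.8, 12.3 and 7.47 in the S group (log2 fold change -0.64 ± 0.26, unadjusted P = 0.0253, adjusted P = 0.752). The ranges overlapped, and mt-Nd3 is among the genes copied on chromosome 1. The call was lost in a joint fit of the 3 groups, with total counts and when pool 1, 2 or 3 of the C group or pool 1 or 5 of the S group was left out. mt-Co2 was at 282, 50.0, 50.1, 28.9 and 34.0 in the C group and at 25.3, 57.1, 49.9, 39.8 and 20.7 in the S group (log2 fold change -1.18 ± 0.55, unadjusted P = 0.0489, adjusted P = 0.769). This value rested on pool 1 of the C group, without which it was -0.07. Between the S and O groups, mt-Tp passed, with 98.6, 106, 160, 95.1 and 77.4 in the S group and 433, 270, 102, 348 and 66.6 in the O group (log2 fold change -1.11 ± 0.44, unadjusted P = 0.0268, adjusted P = 0.320). The O group held both the lowest and the highest of these values, and without its pools 1 and 4 the log2 fold change was -0.37 (unadjusted P = 0.344). The call of mt-Tp was also lost with the pool number as a block. Between the O and C groups mt-Tl2 passed (log2 fold change -1.20, unadjusted P = 0.0444, adjusted P = 0.910), from 5 to 86 counts per library, and it was -0.64 without pool 3 of the C group.

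In PBMC 3 tRNA genes were higher in the S than in the C group, of 20 members tested. Of 15139 genes, 2.64% passed unadjusted, and 1.23% were higher in the S group. mt-Tw was at 0.256, 0.275, 0.559, 0.318 and 0.709 TMM-normalized CPM in the C group and at 0.922, 1.22, 0.792, 0.819 and 0.912 in the S group, so that the groups did not overlap (log2 fold change 1.14 ± 0.30, unadjusted P = 0.00276, adjusted P = 0.788). These values rest on 7 to 18 counts per library in the C group and 18 to 29 in the S group. mt-Tl2 (log2 fold change 0.95, unadjusted P = 0.0265) had 3 to 10 counts in the C group and 6 to 20 in the S group, and mt-Tl1 (0.65, unadjusted P = 0.0403) had 22 to 52 and 29 to 72, with adjusted P values of 1.00 for both. mt-Tw kept its call whichever pool was left out, while mt-Tl2 lost it without pool 2, 3 or 5 of the C group or pool 3 or 4 of the S group, and mt-Tl1 without pool 1, 2 or 4 of the C group, pool 2, 3, 4 or 5 of the S group and in the joint fit of the 3 groups. Pool 3 of the S group is the PBMC library with counts on 32900 genes. Between the S and O groups in PBMC 12.2% of 14686 genes passed and 0 of 19 members (1 by DESeq2), and between the O and C groups 11.9% of 14726 genes and 0 of 19 members (0 by DESeq2). With TMM scaling the rRNAs moved little beside their error in every comparison of groups, as mt-Rnr1 between the S and O groups in platelets (log2 fold change -0.01 ± 0.51) and in PBMC (-0.12 ± 0.33). With total counts mt-Rnr2 passed unadjusted between the S and O groups in PBMC, as given below.

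Whether the responses of platelets and PBMC differed was tested as an interaction of tissue and group over 16498 genes. No member and no other gene passed after adjustment (0% of genes) in any of the 3 contrasts by edgeR's quasi-likelihood test. Without platelet pool 1 of the O group 215 genes passed for O against C (5 higher and 210 lower) and 10 for S against O, without platelet pool 5 of the O group 17 passed for S against O, and no member was among them. Unadjusted, mt-Tl2 passed for S against C (difference of log2 fold changes, platelets minus PBMC, -1.97, unadjusted P = 0.00995, adjusted P = 0.798) and for O against C (-1.58, unadjusted P = 0.0415, adjusted P = 0.727). No member passed for S against O.

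Nuclear genes that work with the 37 members were described by lists, each read against all genes tested in the same comparison. Nuclear subunits of oxidative phosphorylation were higher in platelets than in PBMC in 32 of 36 genes of complex I (1 lower), 7 of 9 of complex III, 10 of 10 of complex IV and 16 of 16 of complex V, with median log2 fold changes of 0.89, 0.76, 1.99 and 1.10 against -0.155 over all genes. Examples were Cox5a, a nuclear subunit of complex IV (3.58), Atpif1, the inhibitor of ATP synthase (3.90), Uqcr11 of complex III (2.61) and Ndufs4 of complex I (2.45). Mitochondrial ribosomal proteins were higher in 57 and lower in 6 of 77, with a median of 0.57. Scaled to total counts, with 13.6% of all genes higher and 77.7% lower, these counts became 7 higher and 18 lower for complex I, 1 and 5 for complex III, 6 and 2 for complex IV, 4 and 6 for complex V, and 2 and 60 for the ribosomal proteins, so the balance of these counts turned with the scaling for all but complex IV, while the mitochondrial rRNAs were higher on both scales.

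Of the factors that transcribe and maintain mitochondrial DNA, 5 of 16 were higher and 6 lower in platelets, beside 36.0% and 45.2% of all genes, against which the next 3 lists are read as well. The polymerase subunits Polg2 (-1.87) and Polg (-0.94) of replication and the mitochondrial RNA polymerase Polrmt (-1.32) were lower. Of the genes for RNA processing and decay 5 of 25 were higher and 11 lower, among them Pnpt1, a polynucleotide phosphorylase (-1.21), Fastk (-1.01) and Elac2, which cuts the ends of tRNAs (-0.99). Of the translation factors 4 of 12 were higher, led by the ribosome recycling factor Mrrf (2.28), and 5 lower. Of the genes of mitophagy and biogenesis 7 of 14 were higher, with the mitophagy receptors Optn (2.88) and Fundc1 (1.55), and 4 lower, with the coactivator Ppargc1b (-1.90). All 6 listed copies on chromosome 1 were higher, with a median of 2.23. The size for Gm28438 is uncertain, as it had 1 to 21 counts per PBMC library. With all pools, 5 of the 6 copies passed the filter in each comparison within PBMC. Reads from identical stretches cannot be assigned, so these values are not read as levels of the nuclear copies alone. Beside the same shares of all genes scaled to total counts, 0 of the factors of mitochondrial DNA were higher and 15 lower, 0 and 23 of the RNA processing genes, 1 and 11 of the translation factors, 4 and 8 of the mitophagy genes and 5 and 0 of the copies.

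Between the S and C groups in platelets, 2 of 36 nuclear genes of complex I, 0 of 9 of complex III, 3 of 10 of complex IV and 1 of 16 of complex V were lower in the S group and none was higher, where 2.13% of all genes were lower. With total counts none of these genes passed in that comparison, where 0.241% of all genes were lower and 10.3% higher. In the same libraries T cell markers averaged 251 CPM in the C and 347 in the S group, NK cell markers 61.4 and 97.9, and B cell markers 671 and 1045. Neutrophil markers averaged 295 and 233 CPM and monocyte markers 2318 and 2203. All of these ranges overlapped, and the part of such cells was not tested. More of the nuclear subunits passed between the S and O groups. There 21 of 36 genes of complex I, 4 of 9 of complex III, 6 of 10 of complex IV and 3 of 16 of complex V were lower in platelets of the S than of the O group, and none was higher, where 6.67% of all genes were lower. The median log2 fold changes were -0.69, -0.83, -1.07 and -0.69 against -0.01 over all genes, with Cox7b of complex IV at -1.60 and Uqcrq of complex III at -1.60. Other markers differed in the same libraries, since the 10 neutrophil markers summed to 300.2 to 1909 CPM in platelets of the O group and to 141 to 290.3 in the S group, and the 7 NK cell markers to 18.6 to 87.9 and 72.0 to 118, with 8 of the 10 and all 7 above 0 in every platelet library. Their part in these counts was not tested. Without pools 1 and 4 of the O group the counts fell to 1, 0, 0 and 0, where 4.82% of all genes were lower and 11.5% passed in either direction. In PBMC 9, 5, 9 and 7 genes of these complexes were lower in the S than in the O group, where 7.80% of all genes were. Without both pools 0, 0, 1 and 0 were lower, where 4.46% of all genes were lower and 8.42% passed in either direction. In the same PBMC libraries cell markers differed as well. The 10 T cell markers summed to 446 to 1030 CPM in the O group and to 1037 to 1547 in the S group, the 7 NK cell markers to 106 to 303 and 378 to 462, and the 8 B cell markers to 1146 to 3747 and 2744 to 4039, each marker being above 0 in every PBMC library. Hemoglobin mRNAs took 16.7% of the counts on average in the O group and 5.92% in the S group. The part of these cells in the counts of the complexes was not tested. The pools whose mitochondrial mRNA composition stood apart were thus those on which these counts rested. Against the C group, 2 genes of complex I and 2 of complex III were higher in platelets of the O group (2.61% of all genes), and 7, 5, 4 and 6 of the 4 complexes in PBMC (7.56% of all genes). Without pools 1 and 4 of the O group these counts were 0 in each complex in platelets (1.80% of all genes higher), and 0, 0, 0 and 1 in PBMC (5.19%). In PBMC these counts depended on the scaling, which moved the median of all genes to 0.357 between the S and O groups and to -0.373 between the O and C groups. With total counts 12 of 36 genes of complex I were lower and 0 higher in the O than in the C group, where 27.7% of all genes were lower. On that scale 4 were higher and 1 lower in the S than in the O group, where 24.3% of all genes were higher. In complexes III, IV and V 0, 3 and 1 genes were then higher and 0, 0 and 3 lower in the O than in the C group, and 0, 0 and 2 higher and 1, 4 and 2 lower in the S than in the O group, so the balance of calls turned for complex I in both comparisons, and that of complex IV did not. In platelets no gene of the 4 complexes changed direction among those that passed with total counts, where 7, 3, 6 and 2 were lower in the S than in the O group (2.09% of all genes).

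The factors of mitochondrial DNA and RNA were described in the same way between groups. In platelets Polrmt was higher in the S group than in the C group (0.63) and the O group (0.57), and Polg (0.47) and the helicase Twnk (0.57) were higher than in the O group. These 3 of 15 factors stood beside 7.23% of all genes higher in the S than in the O group. Without pools 1 and 4 of the O group 1 of 16 was higher, Twnk (0.74, unadjusted P = 0.0103), beside 6.71% of all genes, with Polrmt at 0.40 and Polg at 0.34. Rexo2, a mitochondrial exonuclease for short RNA, was lower in platelets of the S than of the O group (-2.32), and its value was -0.09 without both pools. In PBMC Tfam, the factor that packages mitochondrial DNA, was lower in the O than in the C group (-0.26, and -0.27 without both pools), as were 3 of 12 translation factors, beside 4.39% of all genes, and 1 of 12 without both pools, beside 3.89%. Of 14 genes of mitophagy and biogenesis in PBMC 4 were higher and 1 lower in the O than in the C group (11.9% of all genes passed in either direction), and 1 was higher and 4 lower in the S than in the O group (12.2%). Without both pools these counts were 1 and 1 in either comparison. Among them Bnip3l, a mitophagy receptor of maturing red cells, was higher in the O than in the C group (2.34, and 0.97 without both pools), in libraries whose hemoglobin share was higher as well. Between the S and C groups, 0 of 77 mitochondrial ribosomal protein genes passed in platelets by edgeR, where 6.42% of all genes did, and 1 of 77, Mrpl52, was lower in PBMC (-0.23, unadjusted P = 0.0199), where 1.41% of all genes were. All of these passed unadjusted only.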

How the data were processed

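RNA of pooled platelets and PBMC was sequenced from libraries made with a NEBNext Ultra RNA kit after poly-T selection. The deposited values are raw counts per Ensembl gene, made by the authors with HISAT2 2.0.5 and featureCounts 1.5.0-p3. The submitters' processing notes name build mm9. Positions here are those of GRCm38 (GENCODE release 21), which gave symbols to 54409 of 54532 identifiers; its relation to the build used for counting was not settled. Samples were grouped by title and source name, because platelets were tagged with PBMC as their cell type.

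Counts were filtered by edgeR's filterByExpr, scaled by TMM and tested with edgeR 4.0.16 quasi-likelihood F tests (R 4.3.3), each pair of groups alone, platelets against PBMC with group as a covariate, and the interaction in all 30 libraries. P values were adjusted by Benjamini and Hochberg over all genes. Single values per library were compared by exact two-sided permutation. Near-identical copies (at least 99% identity over 100 bases) were found with BLAST+ 2.17.0. The code was tested on simulated data.

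The members, lists and tests were chosen with earlier results of these data known. Named were all rRNA and protein genes, the 3 tRNAs highest in each tissue, tRNAs that passed in a comparison, all copies, and up to 3 genes per list with the smallest P; mt-Tt and the tRNAs without counts were added once their values had been seen. The study describes its 5 pools per group as independent experiments, and no label says whether a pool number marks an experiment shared by groups. Platelet pool sizes in the S group differ between the labels and the study's methods. Same-numbered pools of the C and S groups deviated together in PBMC (5 of 5 pairs, r = 0.273 to 0.563, each best with its own number), and the replicate block there called the same 3 members. Alternatives were DESeq2 1.42.0, other scalings and filters, a joint fit of the 3 groups, the replicate block and omission of libraries.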

Additional observations from a re-analysis of the deposited data

Results flagged for a closer look

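Of 162 groups of 5 libraries, each for 1 member, 7 had a library far from the others, measured as the gap to the nearest library over the range of the group (values are TMM-normalized CPM). Chance flags about 1 group in 20, and 7 of 162 is not more than that share. In platelets of the C group mt-Co1 was at 9798 in pool 4 and at 11657 to 12134 in the others, mt-Co2 was at 282 in pool 1 and at 28.9 to 50.1 in the others, and mt-Co3 was at 53.7 in pool 5 and at 15.2 to 25.5 in the others. In platelets of the O group mt-Co2 was at 305 in pool 2 and at 21.3 to 73.8 in the others. In PBMC mt-Co2 was at 13.4 in pool 1 of the S group (others 7.65 to 8.52) and at 20.1 in pool 1 of the O group (others 6.95 to 8.96). In the same pool of the O group mt-Tp was at 30.4 in PBMC, with 2.99 to 9.38 in the others. Of the 7 values 4 were of mt-Co2, and with so few flags no pattern is read from this. Its chromosome 1 copy Gm28661 had 309 counts in platelet pool 1 of the C group and 269 in platelet pool 2 of the O group. There mt-Co2 had 3148 and 3263 counts. No cause of these values was tested.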

How the results depend on the processing

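With the same-numbered pools of both tissues as pairs, the differences of 10.4, 10.4 and 10.2 percentage points in the mitochondrial share and of 3.39, 3.38 and 3.31 in the log2 ratio (C, S and O groups) did not pass (exact test, P = 0.0625, adjusted P = 0.141 and 0.188), but 5 pairs allow no P below 0.0625. Outside the C and S groups of PBMC no 2 groups had a correlation over 0.1 in all 5 same-numbered pairs. It was over 0.1 in 4 of 5 between platelets and PBMC of the O group (0.0628 to 0.609, 3 pools best with their own number) between the S and O groups of PBMC (0.0933 to 0.396, 4 best), between the C and O groups of platelets (-0.0493 to 0.411, 3 best) and between those of PBMC (0.0352 to 0.423, 1 best), so a shared origin there was not settled. In these other comparisons the replicate block gave 1 member for S against C and 0 for S against O in platelets and 1 for O against C in PBMC. Other settings moved the few members that passed unadjusted between groups. For S against C in platelets DESeq2 gave 1, no filter 5, total counts 0 and a joint fit of 3 groups 0. For S against O in platelets no filter gave 2, a joint fit 2 and dropping pools 1 and 4 of the O group 0. For O against C in platelets total counts and leaving out both pools gave 0. In PBMC no filter gave 5 for S against C. For S against O in PBMC DESeq2 gave 1, no filter 2, total counts 3, a joint fit 1 and leaving out both pools 1, and for O against C total counts gave 6, a joint fit 2 and leaving out both pools 3 (2 higher and 1 lower). With total counts the 3 were higher, beside 24.3% of all genes, and the 6 lower, beside 27.7%. Leaving out 1 pool gave 0 to 3 members for S against C, 0 to 2 for S against O and 0 to 2 for O against C in platelets, and 1 to 6, 0 to 2 and 0 to 2 in PBMC. After adjustment it gave 19 to 21 members between tissues and 0 in the interaction, where 0 to 2 passed unadjusted. The PBMC difference in mitochondrial share ranged from 0.170 to 0.297 points (S against O) and from -0.496 to -0.282 (O against C). With total counts the sign of the log2 fold change turned for 11 of 19 members for S against O and 7 of 19 for O against C in PBMC, 1 of 20 for S against C there, and 4, 4 and 2 of 22 for S against C, S against O and O against C in platelets, most of which did not pass on either scale. A value that had turned passed for mt-Rnr2 in PBMC, S against O (0.43 with total counts), for mt-Co2 in PBMC, O against C (-0.25 without both pools) and between tissues with total counts for mt-Tc (-0.79), mt-Tl1 (-0.93) and mt-Tw (-0.83). The cause was not tested. Over all genes, the count past an unadjusted P of 0.05 went with total counts from 852 to 1399 (S against C), 1849 to 1043 (S against O) and 635 to 409 (O against C) in platelets and from 1796 to 3918 and 1759 to 4403 for S against O and O against C in PBMC. Without a filter it became 2097, 3131 and 1547 in platelets and 1512 for S against C in PBMC (400 with the filter, 651 with the replicate block). A joint fit gave 954 for O against C in platelets. Without pool 1 of the C group the count for S against C in platelets was 1542 and without pool 1 of the S group 556, without pool 2 of the O group that for O against C was 1072, and without pool 3 of the C group that for S against C in PBMC was 603. The chosen threshold on unadjusted P and the low counts of the tRNA genes limit what these comparisons can show.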
